A study of Mus musculus with 6 samples.

Results

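Interferon-stimulated genes are genes whose transcription is switched on when a cell senses interferon, and 41 of them were followed here among the 54532 genes of a table of expression values from mouse back epidermis. They were taken by gene name from a named set in 2 classes, 28 genes induced mainly by type I interferon and 13 induced mainly by interferon gamma. Irf1 was placed in the gamma class because interferon gamma is its best known inducer. All 41 names were found in the table.

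The question was how these genes stood in epidermis that had lost Spry1, the gene of Sprouty1, a protein that dampens growth factor receptor signals on their way to ERK. The Spry1_KO mice had the genotype Spry1flox/flox; K14-Cre-ERT2, and the Control mice were Spry1flox/flox without the Cre transgene. Tamoxifen was given to both genotypes by mouth, 4 times a week over 4 weeks, with 0.1 mg per g of body weight in each dose. There were 3 RNA-seq libraries of Spry1_KO epidermis and 3 of Control epidermis.

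The keratin 14 promoter drives Cre-ERT2 in basal keratinocytes, and tamoxifen lets the recombinase enter the nucleus. No library came from mice with the Cre transgene and unfloxed Spry1, so what the recombinase does and what the lost gene does cannot be told apart. No source used here gives the ages or sexes of the mice. The labels do not say that the libraries of a genotype came from separate mice, so every p-value measures only the spread between these libraries, which may be technical. Whole epidermis was sequenced, so fewer cells of a type and less RNA per cell cannot be told apart.

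Type I interferons signal through the receptor IFNAR1 and IFNAR2, the kinases TYK2 and JAK1, and a complex that includes STAT2 and IRF9 and binds a DNA element called the interferon-stimulated response element. Interferon gamma, made mainly by T cells and natural killer cells, signals through IFNGR1 and IFNGR2 to factors that bind gamma-activated sites. Keratinocytes answer both kinds of interferon, and the products range from enzymes that degrade viral RNA to the machinery that loads peptides on MHC class I molecules.

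RefSeq promoter windows on GRCm38.p6, of 250 bases before to 50 bases after a gene's start, matched 32 of the 41 members. The core of the interferon-stimulated response element was written as GAAA, any 2 bases and GAAA again, and searched on both strands. It was present in 19 of the 32 members with a window (59.4%), against 3.99% of all 27025 genes in the table of windows. By class, 11 of 19 type I genes (57.9%) and 8 of 13 gamma genes (61.5%) held it. The palindromic core of a gamma-activated site, TTCNNNGAA, was present in 10 of the 32 members (31.2%) and in 9.55% of all genes. A match is a run of letters and not evidence of binding.

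The windows of 6 members show how the matches lie. Each is printed over the 250 bases before the start, with the letters that match the response element core on either strand in capitals. Matches can overlap, and 3 of them run into each other in Isg15. Isg15 and Ifit3 are type I genes that rose in the Spry1_KO libraries, Gbp3, Cxcl10 and Cxcl9 are gamma genes that rose, and B2m is a gamma gene that fell.
Isg15, chr4:156200819-156201068, minus strand: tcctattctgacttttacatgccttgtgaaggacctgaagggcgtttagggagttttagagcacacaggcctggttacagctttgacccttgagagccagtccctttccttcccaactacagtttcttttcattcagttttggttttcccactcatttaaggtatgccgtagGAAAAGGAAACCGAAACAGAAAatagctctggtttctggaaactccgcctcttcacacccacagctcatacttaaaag
Ifit3, chr19:34583279-34583528, plus strand: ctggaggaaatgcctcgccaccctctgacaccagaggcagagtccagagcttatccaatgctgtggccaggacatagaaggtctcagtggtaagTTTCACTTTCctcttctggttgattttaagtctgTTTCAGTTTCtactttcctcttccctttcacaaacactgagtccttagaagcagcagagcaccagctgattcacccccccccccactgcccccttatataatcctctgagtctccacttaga
Gbp3, chr3:142559794-142560043, plus strand: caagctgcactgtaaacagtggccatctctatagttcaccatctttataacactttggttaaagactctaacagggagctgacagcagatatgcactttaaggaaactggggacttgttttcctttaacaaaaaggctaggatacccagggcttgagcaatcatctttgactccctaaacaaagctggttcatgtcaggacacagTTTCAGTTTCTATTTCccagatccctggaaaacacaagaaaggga
Cxcl10, chr5:92348890-92349139, minus strand: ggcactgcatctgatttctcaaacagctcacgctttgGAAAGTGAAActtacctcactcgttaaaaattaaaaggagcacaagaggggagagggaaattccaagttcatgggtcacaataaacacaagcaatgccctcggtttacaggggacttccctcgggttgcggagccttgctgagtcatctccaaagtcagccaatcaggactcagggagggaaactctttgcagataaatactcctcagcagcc
Cxcl9, chr5:92328080-92328329, minus strand: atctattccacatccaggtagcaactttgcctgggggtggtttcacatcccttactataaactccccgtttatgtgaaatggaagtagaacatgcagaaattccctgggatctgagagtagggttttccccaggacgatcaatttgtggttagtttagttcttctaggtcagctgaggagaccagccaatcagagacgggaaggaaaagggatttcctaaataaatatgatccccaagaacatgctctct
B2m, chr2:122147437-122147686, plus strand: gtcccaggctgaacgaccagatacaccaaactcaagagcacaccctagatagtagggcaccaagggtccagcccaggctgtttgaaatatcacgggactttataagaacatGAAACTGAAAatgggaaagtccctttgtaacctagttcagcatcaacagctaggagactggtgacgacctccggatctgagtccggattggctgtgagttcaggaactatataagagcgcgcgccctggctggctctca

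In Isg15 the 3 overlapping matches began 78, 72 and 66 bases before the start, and in Ifit3 the 2 matches, read on the reverse strand, began 156 and 122 bases before it. Gbp3 is listed with 2 windows, and in the one shown the 2 overlapping matches began 45 and 39 bases before the start. The single Cxcl10 match began 213 bases upstream, and the neighbouring Cxcl9 window held neither core in its 300 bases. B2m held 1 match, 139 bases upstream. Among members with a window, the core was found in 5 of the 8 type I genes that rose and in 4 of the 6 that were tested and did not pass. In the gamma class it was found in 3 of the 4 that rose, 1 of the 3 that fell and 3 of the 5 that did not pass.

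Spry1 itself measured 1.06, 1.49 and 1.28 FPKM (fragments per kilobase of exon, scaled to sequencing depth, the unit of the deposited table) in the 3 Spry1_KO libraries, against 25.8, 28.2 and 34.4 FPKM in the 3 Control libraries. Values are given for replicates 1, 2 and 3 of each genotype, in that order, throughout. Reads recovered from the values summed to 18383323 to 21024715 per library. In all, 12629 genes averaged at least 1 FPKM over the libraries and were tested. Of these 3736 (29.6%) were higher and 3079 (24.4%) lower in Spry1_KO by limma at a Benjamini-Hochberg adjusted p under 0.05, with a median log2 fold change of 0.03. The split depended on the scaling. With values rescaled to the same sum in every library 2055 genes (16.3%) were higher and 4470 (35.4%) lower, with a median log2 fold change of -0.22. By limma-voom on the recovered reads 2764 were higher and 3615 (30.1%) lower. The 4 keratinocyte markers Krt14, Krt5, Krt1 and Krt10 were abundant in every library, with sums of 21414 to 26967 FPKM in Spry1_KO and 11236 to 13666 FPKM in Control. By limma Krt14, Krt1 and Krt5 rose, with log2 fold changes of 2.04 ± 0.23, 1.94 ± 0.19 and 0.80 ± 0.18, and Krt10 fell, at -0.92 ± 0.24, and the Krt5 and Krt10 calls were lost with no filter and with a replicate block, and that of Krt5 also with both Spry1_KO replicate 2 and Control replicate 3 left out. The part of this in the levels of the interferon-stimulated genes was not tested. The Y-linked gene Eif2s3y measured 19.3 FPKM in Spry1_KO replicate 2, against 0.203 and 0.0438 FPKM in Spry1_KO replicates 1 and 3 and 0 FPKM in each Control library, so 1 Spry1_KO library differed from the other 5 in sex-linked RNA.

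In the type I class the antiviral effectors Isg15, Ifit1, Ifit3 and Oas1a and the transcription factor Irf7 rose in Spry1_KO epidermis, Usp18 fell, and Stat2, Irf9 and the RNA sensors Ddx58 and Ifih1 did not pass the test. Of the 28 type I members 20 passed this filter on the mean. By limma 11 of these 20 rose (29.6% of all tested genes did), 1 fell (24.4%) and 8 did not pass. Their median log2 fold change was 0.69. With no filter, so that each of the 28 members entered the fit, 15 rose and 1 fell, where 14.1% of the 28340 genes above 0 in any library rose and 13.1% fell. The filter let in 7 members of both classes whose Control mean was under 1 FPKM, and such genes pass only through the genotype where they are high. They were Ifit1, Ifit3, Oasl2, Dhx58 and Zbp1 of the type I class and Gbp3 and Gbp7 of the gamma class. Each but Gbp7 was called higher, so the shares that rose are in part set by the filter. In 17 of the 28 type I members every Spry1_KO library lay above every Control library, in 1 every Spry1_KO library lay below, and in 10 the groups overlapped. Among all genes above 0, 20.6% lay wholly above and 21.5% wholly below. Of those 28340 genes 12629 passed the filter, against 20 of the 28 members. The shares over genes above 0 thus come from a set with more low genes than the members. Each fold change below is a ratio of mean FPKM unless it is called a log2 fold change, which is on the log2(FPKM + 1) scale with its standard error (n = 3 libraries each) and understates the change of low genes.

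**Figure D1:**
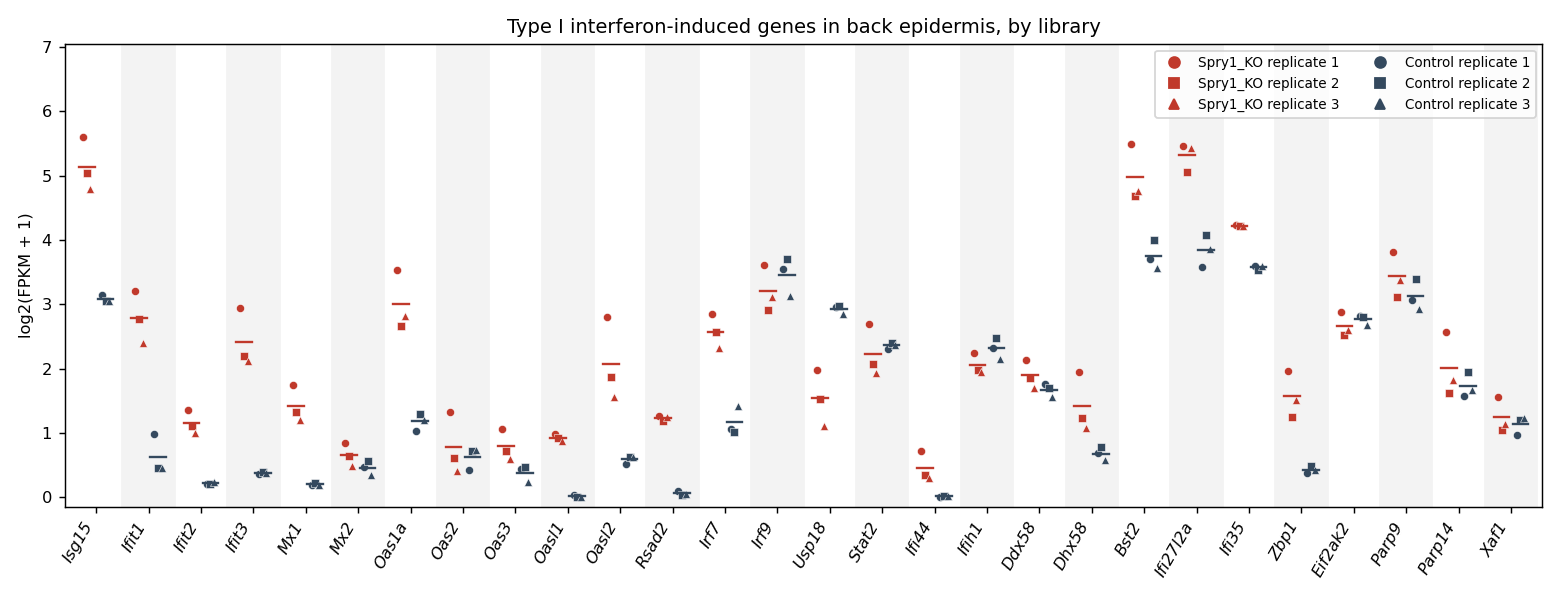
Levels of the 28 type I interferon-induced genes, with log2(FPKM + 1) on the vertical axis and 1 gene per column. Red marks are the 3 Spry1_KO libraries, dark marks the 3 Control libraries and bars the means. Isg15, Ifit1, Ifit3 and Oas1a show a wide gap between the genotypes, Usp18 shows the opposite order, and the marks of Irf9, Stat2, Ifih1, Ddx58 and Eif2ak2 interleave.

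IFIT1 binds viral RNA that lacks the cap marks of host RNA and blocks its translation, and IFIT2 and IFIT3 are its relatives and partners. Ifit1 measured 8.24, 5.84 and 4.26 FPKM in the Spry1_KO libraries, against 0.971, 0.371 and 0.367 FPKM in the Control libraries. Ifit3 measured 6.70, 3.57 and 3.34 FPKM in Spry1_KO, against 0.283, 0.313 and 0.294 FPKM in Control. Ifit2, below the filter, measured 1.56, 1.16 and 0.991 FPKM in Spry1_KO, against 0.154, 0.153 and 0.183 FPKM in Control. The genotypes did not overlap for any of the 3 genes, which lie together on chromosome 19 between 34550694 and 34650009. Mean FPKM was 10.7-fold higher for Ifit1, 15.3-fold higher for Ifit3 and 7.57-fold higher for Ifit2. Limma adjusted p was 0.000468 for Ifit1 and 0.000443 for Ifit3, and 0.00285 for Ifit2 in the fit with no filter. Of the 100-base windows of Ifit3 exons, 31.6% are also present in its copy Ifit3b, so reads of the pair may be split or joined. Ifit3b measured 1.34, 0.922 and 0.973 FPKM in Spry1_KO, against 0.0274, 0 and 0.0257 FPKM in Control.

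The OAS enzymes make oligoadenylates from double-stranded RNA, which activate an RNase. Oas1a measured 10.6, 5.32 and 6.06 FPKM in the Spry1_KO libraries, against 1.05, 1.45 and 1.31 FPKM in the Control libraries. Oasl2, an OAS-like protein, measured 5.94, 2.65 and 1.95 FPKM in Spry1_KO, against 0.430, 0.541 and 0.547 FPKM in Control. Both rose, by 1.83 ± 0.23 and 1.49 ± 0.30 on the log2 scale (limma adjusted p = 0.000739 and 0.00584). Oas1a shares 40.9% of its windows with Oas1g, so their reads cannot be told apart with certainty. Oasl1, in mice a repressor of Irf7 translation, held 51, 40 and 36 reads in Spry1_KO, against 1, 0 and 0 reads in Control. Oas3 measured 1.09, 0.636 and 0.516 FPKM in Spry1_KO, against 0.349, 0.379 and 0.181 FPKM in Control. These genotypes did not overlap for Oasl1 or Oas3, but Oas3 did not pass with no filter (limma adjusted p = 0.0886). Oas2 measured 1.51, 0.531 and 0.328 FPKM in Spry1_KO, against 0.333, 0.639 and 0.669 FPKM in Control. Only Spry1_KO replicate 1 lay above the Control libraries for Oas2, and the groups overlapped.

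The Mx proteins are dynamin-like GTPases that trap viral components, and viperin, encoded by Rsad2, makes a chain-terminating nucleotide. Mx1 measured 2.34, 1.51 and 1.3 FPKM in Spry1_KO, against 0.145, 0.159 and 0.136 FPKM in Control. Rsad2 held 121, 96 and 97 reads in Spry1_KO, against 5, 2 and 3 reads in Control. Ifi44, an interferon-induced cytoplasmic protein, held 79, 29 and 23 reads in Spry1_KO, against 0, 1 and 2 reads in Control. None of these 3 genes overlapped between the genotypes, and each passed in the fit with no filter, with limma adjusted p of 0.00319 for Mx1, 0.000441 for Rsad2 and 0.0329 for Ifi44. Mx1 was 11.7-fold higher, and no ratio is given for Rsad2 and Ifi44, whose Control libraries hold so few reads. Mx2 behaved differently, at 0.799, 0.558 and 0.404 FPKM in Spry1_KO, against 0.380, 0.469 and 0.270 FPKM in Control, and its groups overlapped.

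ISG15 is a ubiquitin-like protein that is attached to other proteins, and USP18 is the protease that removes it and also blocks signalling at the type I receptor. The pair moved in opposite directions. Isg15 measured 47.3, 31.9 and 26.6 FPKM in the Spry1_KO libraries, against 7.84, 7.31 and 7.26 FPKM in the Control libraries. Usp18 measured 2.94, 1.88 and 1.15 FPKM in Spry1_KO, against 6.76, 6.88 and 6.22 FPKM in Control. Neither gene overlapped between the genotypes. Isg15 was 4.73-fold higher and Usp18 3.32-fold lower, with log2 fold changes of 2.06 ± 0.20 and -1.39 ± 0.21 (limma adjusted p = 0.000247 and 0.00165). Usp18 was the single type I member that fell, although a second one passed as lower with values rescaled to the same sum (Ifih1), in limma-voom on recovered reads (Ifih1) and without Spry1_KO replicate 1 (Stat2). An antisense-strand lincRNA, Gm44148, overlaps 4.44% of the Usp18 exon length.

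The transcription factors of the class divided. Irf7, which amplifies type I interferon production, measured 6.17, 4.91 and 3.99 FPKM in Spry1_KO, against 1.08, 1.01 and 1.68 FPKM in Control. Stat2, the STAT specific to type I and type III signalling, measured 5.45, 3.21 and 2.83 FPKM in Spry1_KO, against 3.93, 4.29 and 4.18 FPKM in Control. Irf9, its DNA-binding partner, measured 11.2, 6.54 and 7.64 FPKM in Spry1_KO, against 10.7, 12.1 and 7.72 FPKM in Control. Irf7 rose 3.99-fold with no overlap (log2 fold change 1.41 ± 0.17, limma adjusted p = 0.000719). Spry1_KO replicate 1 lay above the Control range for Stat2 and within it for Irf9, the other 2 Spry1_KO libraries lay below it for both genes, and neither passed (adjusted p = 0.608 and 0.364). Without Spry1_KO replicate 1, Stat2 passed as lower, with a log2 fold change of -0.35 (adjusted p = 0.0412).

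Five-prime triphosphate and double-stranded viral RNA are sensed by RIG-I (Ddx58) and MDA5 (Ifih1), with LGP2 (Dhx58) as their regulator. Ddx58 measured 3.38, 2.62 and 2.23 FPKM in Spry1_KO, against 2.40, 2.23 and 1.94 FPKM in Control, and Ifih1 measured 3.72, 2.96 and 2.84 FPKM in Spry1_KO, against 4.02, 4.57 and 3.42 FPKM in Control. Neither passed (limma adjusted p = 0.214 and 0.128). Ifih1 did pass as lower with values rescaled to the same sum (log2 fold change -0.55) and in limma-voom on recovered reads (-0.46). Its window held the response element core GAAACAGAAA, starting 32 bases after the start. Dhx58 measured 2.84, 1.34 and 1.11 FPKM in Spry1_KO, against 0.604, 0.719 and 0.486 FPKM in Control. The log2 fold change was 0.74 ± 0.24 (adjusted p = 0.0346), and without Spry1_KO replicate 1 it was 0.47 (adjusted p = 0.0552). The call was also lost on leaving out any Control library, with values rescaled to the same sum, with no filter, and with both Spry1_KO replicate 2 and Control replicate 3 left out. Leaving out 1 Control library left a log2 fold change of 0.68 to 0.79.

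Zbp1, a sensor of left-handed nucleic acid that can trigger cell death, measured 2.90, 1.37 and 1.84 FPKM in Spry1_KO, against 0.295, 0.403 and 0.334 FPKM in Control. It rose 5.93-fold (limma adjusted p = 0.00292). Eif2ak2, the kinase PKR that halts translation on sensing double-stranded RNA, measured 6.34, 4.76 and 5.05 FPKM in Spry1_KO, against 6.04, 5.98 and 5.41 FPKM in Control. Its groups overlapped and it did not pass (adjusted p = 0.481). Of these 5 sensor genes Zbp1 and Dhx58 were thus called higher, where 29.6% of all tested genes were, and Ddx58, Ifih1 and Eif2ak2 did not pass. The Dhx58 call was lost under the alternatives named above.

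Of the remaining type I genes, Bst2 encodes tetherin, which holds budding virus at the cell surface. Bst2 measured 44.1, 24.8 and 26.2 FPKM in Spry1_KO, against 12, 15 and 10.8 FPKM in Control, 2.52-fold higher (limma adjusted p = 0.00412). Ifi27l2a measured 43.1, 32.5 and 42.1 FPKM in Spry1_KO, against 10.9, 15.9 and 13.5 FPKM in Control. Ifi35, whose product binds the related protein NMI, had tight replicates, at 17.8, 17.7 and 17.6 FPKM in Spry1_KO, against 11, 10.6 and 11.1 FPKM in Control. Its rise was modest, 1.62-fold, with a log2 fold change of 0.65 ± 0.07 (adjusted p = 0.000356), and an antisense transcript, Gm11626, overlaps 16.8% of its exon length. Parp9 and Parp14, ADP-ribosyltransferases, and Xaf1, which promotes apoptosis, overlapped between the genotypes. Their log2 fold changes were 0.31 ± 0.20, 0.27 ± 0.25 and 0.12 ± 0.17.

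**Figure D2:**
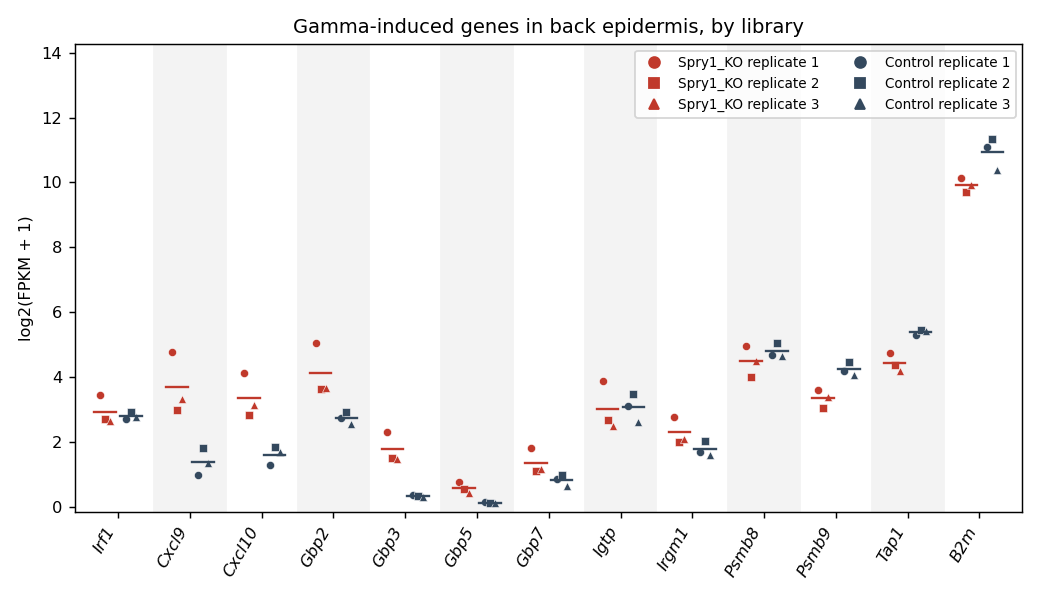
Levels of the 13 gamma-induced genes, with log2(FPKM + 1) on the vertical axis and 1 gene per column. Red marks are the 3 Spry1_KO libraries, dark marks the 3 Control libraries and bars the means. Cxcl9, Cxcl10, Gbp2 and Gbp3 lie higher in Spry1_KO, Psmb9, Tap1 and B2m lie lower, and the circle of Spry1_KO replicate 1 is the top red mark of each gene.

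In the gamma class the chemokine genes Cxcl9 and Cxcl10 and the guanylate-binding protein genes Gbp2 and Gbp3 rose in Spry1_KO epidermis, and Psmb9, Tap1 and B2m of the MHC class I pathway fell. Of its 13 members 12 passed the filter and Gbp5 did not. By limma 4 of the 12 rose, 3 fell and 5 did not pass, shares of 33.3% higher and 25% lower that lie close to the 29.6% and 24.4% of all tested genes, and the median log2 fold change was 0.33. With no filter 5 of the 13 rose and 2 fell, where 14.1% of all genes above 0 in any library rose and 13.1% fell. In 6 members every Spry1_KO library lay above every Control library, in 3 every one lay below, and in 4 the groups overlapped. Of all genes above 0, a set with more low genes, 20.6% lay wholly above and 21.5% wholly below.

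CXCL9 and CXCL10 attract T cells through the receptor CXCR3. Cxcl9 measured 26.4, 6.90 and 8.89 FPKM in the Spry1_KO libraries, against 0.964, 2.54 and 1.53 FPKM in the Control libraries. Cxcl10 measured 16.4, 6.17 and 7.77 FPKM in Spry1_KO, against 1.46, 2.57 and 2.19 FPKM in Control. Every Spry1_KO library lay above every Control library for both, and Spry1_KO replicate 1 stood far above the other 2. The log2 fold changes were 2.31 ± 0.47 for Cxcl9, the widest error of the tested members, and 1.76 ± 0.33 for Cxcl10 (limma adjusted p = 0.00579 and 0.00406). Cxcl9 and Cxcl10 are neighbours on chromosome 5, between 92321347 and 92348889.

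Guanylate-binding proteins coat the vacuoles and outer membranes of microbes inside cells, and 4 of them, in a cluster on chromosome 3, were members. Gbp2 measured 31.8, 11.4 and 11.6 FPKM in Spry1_KO, against 5.71, 6.54 and 4.83 FPKM in Control. Gbp3 measured 3.96, 1.84 and 1.79 FPKM in Spry1_KO, against 0.286, 0.268 and 0.220 FPKM in Control. Gbp2 rose 3.21-fold and Gbp3 9.81-fold (limma adjusted p = 0.0181 and 0.00243). Gbp5, which also promotes inflammasome assembly, held 94, 52 and 36 reads in Spry1_KO, against 12, 9 and 10 reads in Control, and passed with no filter (adjusted p = 0.0174). Gbp7 measured 2.53, 1.14 and 1.23 FPKM in Spry1_KO, against 0.801, 0.974 and 0.539 FPKM in Control. The Gbp7 groups did not overlap, but it did not pass (adjusted p = 0.0774), and it shares 9.59% of its windows with the pseudogene Gm43802.

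Igtp and Irgm1 encode immunity-related GTPases, which in mice act on vacuoles that hold pathogens. Igtp measured 13.5, 5.41 and 4.57 FPKM in Spry1_KO, against 7.54, 10.2 and 5.10 FPKM in Control. Irgm1 measured 5.84, 3.0 and 3.29 FPKM in Spry1_KO, against 2.21, 3.05 and 2.02 FPKM in Control. Both overlapped between the genotypes and neither passed (limma adjusted p = 0.917 and 0.0880). Irf1, a transcription factor and an early target of interferon gamma, measured 9.86, 5.52 and 5.26 FPKM in Spry1_KO, against 5.52, 6.57 and 5.74 FPKM in Control. Its groups overlapped (adjusted p = 0.612), and moving it to the type I class changed no count of calls.

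Peptides for MHC class I are cut by the immunoproteasome (Psmb8, Psmb9), pumped into the endoplasmic reticulum by TAP (Tap1) and presented by a heavy chain paired with beta-2-microglobulin (B2m). Tap1 measured 25.5, 19.6 and 17.0 FPKM in the Spry1_KO libraries, against 38.3, 42.7 and 42.0 FPKM in the Control libraries. Psmb9 measured 11.1, 7.26 and 9.52 FPKM in Spry1_KO, against 17.3, 20.9 and 15.7 FPKM in Control. B2m measured 1113, 830.4 and 967 FPKM in Spry1_KO, against 2161, 2572 and 1321 FPKM in Control. All 3 genes fell with no overlap, by log2 fold changes of -0.97 ± 0.15 for Tap1, -0.89 ± 0.17 for Psmb9 and -1.01 ± 0.26 for B2m (limma adjusted p = 0.00160, 0.00405 and 0.0164). The B2m call was lost without Spry1_KO replicate 2 (adjusted p = 0.0610), without Control replicate 1 (0.0558) and with no filter (0.0674). Psmb8 measured 30.2, 15.1 and 21.5 FPKM in Spry1_KO, against 24.7, 31.8 and 23.9 FPKM in Control, and did not pass (adjusted p = 0.327). Psmb9, Tap1 and Psmb8 lie side by side on chromosome 17 between 34181987 and 34201454. Exons of Psmb9 and Tap1 overlap over 212 bases on opposite strands, and Psmb8 overlaps an antisense transcript over 14.7% of its exon length. No source used here says whether the counting used strand, so some of their reads cannot be told apart.

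**Figure D3:**
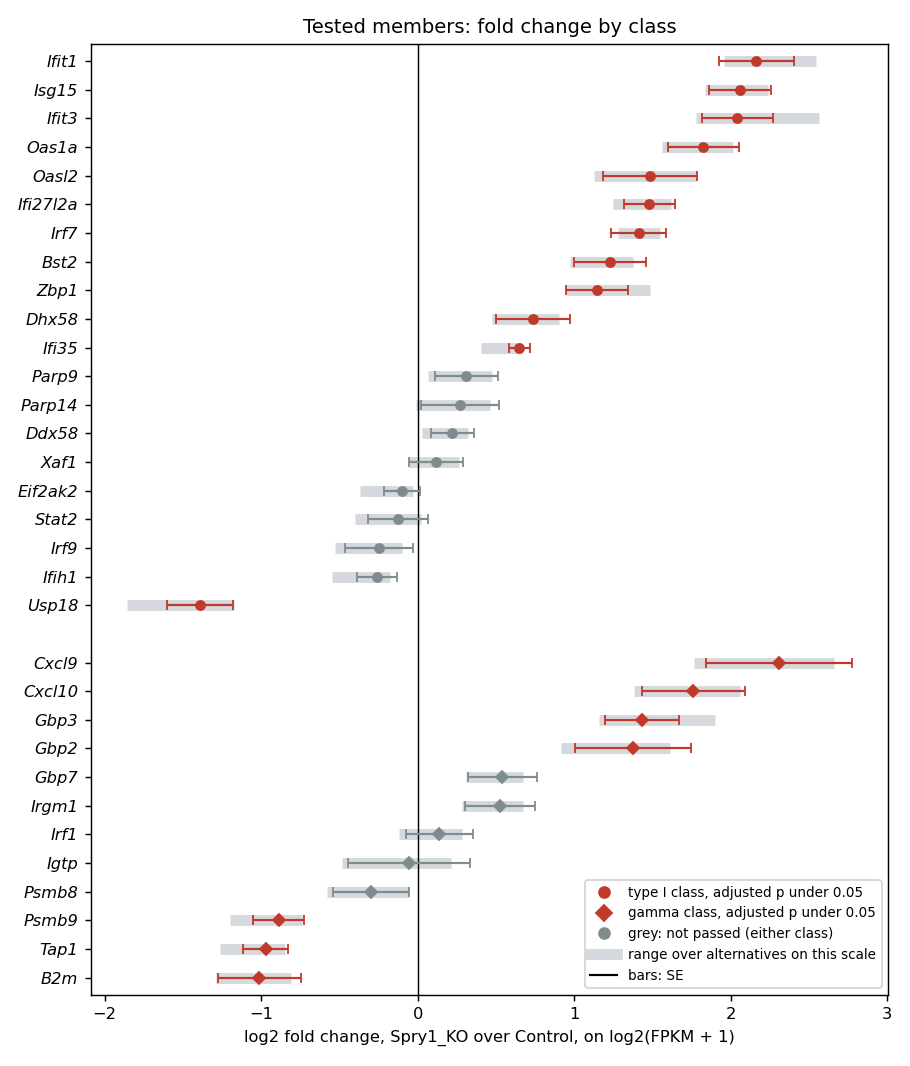
Log2 fold change of each of the 32 tested members, Spry1_KO over Control, on log2(FPKM + 1), with bars for the standard error and pale bands for the range over the alternatives on that scale. Circles are type I genes and diamonds gamma genes, and red marks passed at an adjusted p under 0.05. The type I list ends with Usp18 at -1.39 and the gamma list with Psmb9, Tap1 and B2m between -0.89 and -1.01.

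The Spry1_KO libraries also differed among themselves along these genes. Spry1_KO replicate 1 held the highest value of the 3 Spry1_KO libraries in 41 of 41 members, the ones that fell included. Among all tested genes it was the highest of the 3 in 30.8%. The median ratio of Spry1_KO replicate 1 to the mean of the other 2 was 1.73 over the members, 1.66 in the type I class and 1.86 in the gamma class, beside 0.995 over all tested genes. With values rescaled to the same sum it was again the highest for 41 of 41 members, where 63.1% of all tested genes were. The ratios ran widely. Oas2 had a ratio of 3.52, Cxcl9 3.34 and Gbp2 2.75, while Ifi35 had 1.01, Rsad2 1.05, Oasl1 1.13 and Ifi27l2a 1.16. Summed over the type I class, Spry1_KO replicates 1, 2 and 3 measured 259, 171 and 176 FPKM, against 92.0, 105 and 88.2 FPKM in the Control libraries.

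Without Spry1_KO replicate 1, limma called 10 type I members higher and 2 lower, and 4 gamma members higher and 3 lower, where 25.1% of all tested genes were higher and 20.0% lower. Of the 19 members called in either direction, 17 were called under every alternative in which they were fitted, and the other 2 were Dhx58 and B2m. Psmb9, among the 17, could not be fitted by limma-voom. Of the 13 tested members that did not pass, Stat2 and Ifih1 passed under at least 1 alternative.

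**Figure D4:**
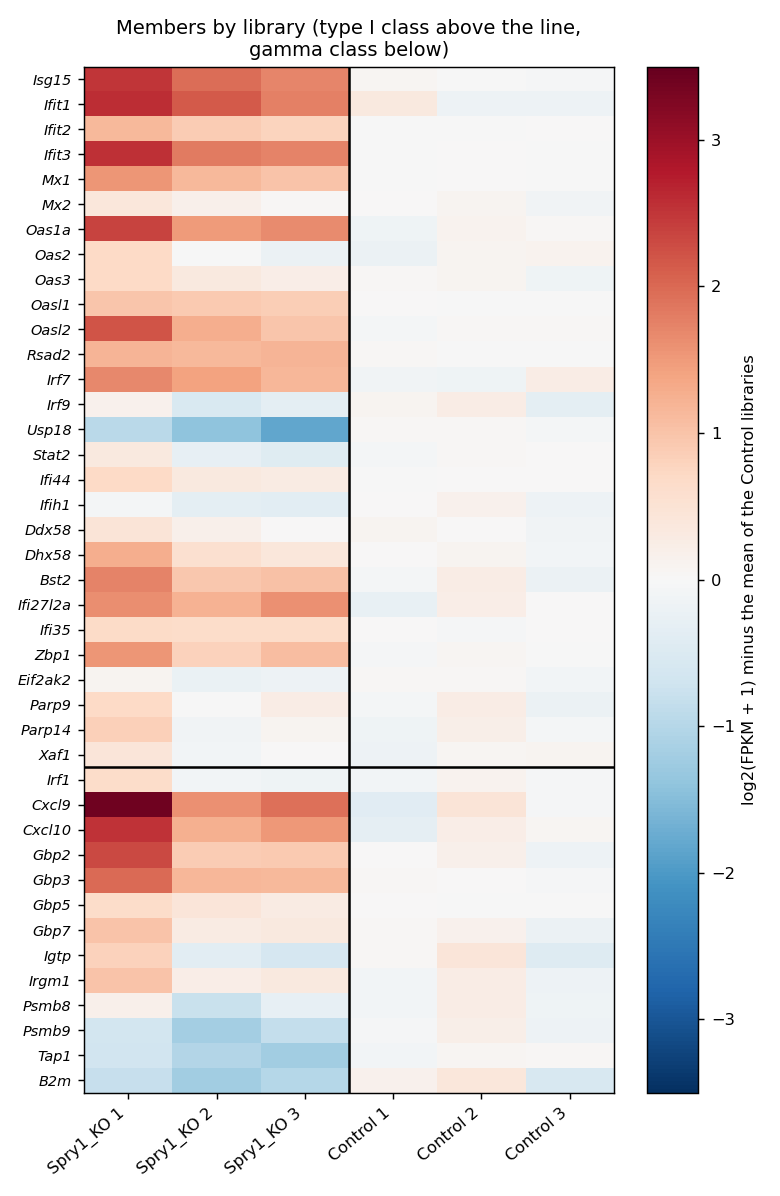
Log2(FPKM + 1) of each member in each library minus the mean of the 3 Control libraries, red for higher and blue for lower, with type I genes above the horizontal line and gamma genes below it. The left column, Spry1_KO replicate 1, is the reddest or least blue of the 3 Spry1_KO columns in each row, while Usp18, Psmb9, Tap1 and B2m are blue in all 3.

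A wider list of interferon-induced genes held 90 further genes in the table, 56 of them tested. By limma 16 rose (28.6%, where 29.6% of all tested genes did) and 15 fell (26.8%, where 24.4% did), shares close to those of all genes. When values were rescaled to the same sum 10 rose, where 16.3% of all tested genes did. In its type I part 12 of 33 tested genes rose (36.4%) and 7 fell (21.2%). Rtp4, a chaperone for receptors, measured 5.49, 3.38 and 3.31 FPKM in Spry1_KO, against 0.386, 0.744 and 0.361 FPKM in Control. Lgals9, which encodes galectin-9, rose by 1.44 ± 0.13, Samhd1, which degrades deoxynucleotides, by 1.01 ± 0.10 and Trim25, the ubiquitin ligase of RIG-I, by 0.71 ± 0.08 on the log2 scale. In the other direction Oas1c, in the same gene cluster as Oas1a on chromosome 5, measured 2.21, 2.28 and 2.33 FPKM in Spry1_KO, against 7.51, 7.03 and 6.76 FPKM in Control. Tdrd7, Isg20 and Ifi27 fell by 0.74 ± 0.09, 0.94 ± 0.14 and 0.91 ± 0.18 on the log2 scale. Thus Oas1a and Oas1c, and Ifi27l2a and Ifi27, differed in direction within their families.

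In the gamma part of that list 4 of 23 tested genes rose (17.4%, where 29.6% of all tested genes did) and 8 fell (34.8%, where 24.4% did). The 4 that rose were the T cell chemokine Ccl5, the proteasome activator Psme2, the immunoproteasome subunit Psmb10 and the tryptophan tRNA synthetase Wars, with log2 fold changes of 1.55 ± 0.31, 0.91 ± 0.18, 0.86 ± 0.18 and 0.50 ± 0.07. The Wars call was lost when values were rescaled to the same sum. H2-Q6, a class I heavy chain of the Qa group, measured 24.2, 12.5 and 13.2 FPKM in Spry1_KO, against 109, 119 and 109.6 FPKM in Control, 6.76-fold lower (limma adjusted p = 0.000166). H2-Q4 and H2-Q7 fell by 1.51 ± 0.15 and 1.77 ± 0.19 on the log2 scale. Ciita, the activator of MHC class II genes, fell by 1.0 ± 0.12. The classical heavy chain H2-K1 and Nlrc5, the activator of MHC class I genes, were chosen after their values were seen, and fell by 0.77 ± 0.13 and 1.04 ± 0.20. Parts of the class I pathway therefore moved apart, with Psmb10 and Psme2 higher and Tap1, Psmb9, B2m, Nlrc5 and heavy chains lower. Other parts, Psmb8, Psme1, Tap2, Tapbp and Erap1, did not pass (limma adjusted p = 0.327, 0.0802, 0.587, 0.492 and 0.844). The heavy chains H2-D1 and H2-T23 fell by only 0.38 ± 0.11 and 0.42 ± 0.13 on the log2 scale. Both of these calls were lost under several alternatives, no filter and a replicate block among them. Class I heavy chains are close copies of each other, and no source used here says how reads common to several of them were counted.

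**Figure D5:**
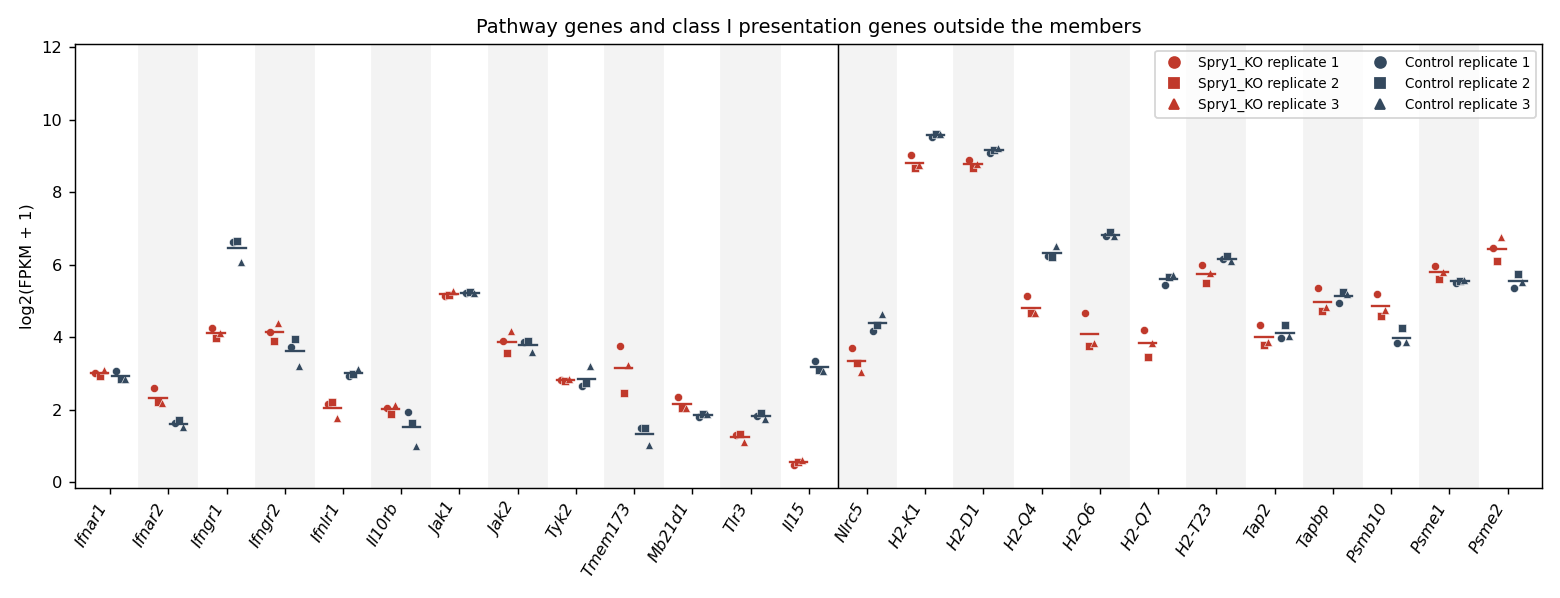
Levels of receptor, kinase and sensor genes (left of the line) and of MHC class I presentation genes outside the members (right of it), with log2(FPKM + 1) on the vertical axis. Red marks are the 3 Spry1_KO libraries, dark marks the 3 Control libraries and bars the means. Ifngr1 and Il15 lie far lower in Spry1_KO, Tmem173 lies higher, and Ifnar1, Jak1 and Tyk2 lie at similar heights in both genotypes.

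The genes that act upstream were taken from a list of interferons, receptors, kinases, factors, sensors and negative regulators. The table held 58 of them, of which 42 were tested, and 10 rose (23.8%, where 29.6% of all tested genes did) and 9 fell (21.4%, where 24.4% did) by limma. When values were rescaled to the same sum 14 fell, where 35.4% of all tested genes did. The type I and type III interferon genes on the list, with Ifna1, Ifna2, Ifna4 and Ifna5 as its only Ifna genes, held at most 4 reads in any library. Ifna2 and Ifnl2 each held 2 reads in Spry1_KO replicate 2 and 0 in the other libraries. Ifnl3 held 1, 1 and 0 reads in Spry1_KO, against 0 reads in each Control library. Ifnb1 held 2 reads in 1 Spry1_KO library and 0 in the other 5, Ifnk, an interferon of keratinocytes, held 0 reads in each Spry1_KO library, against 0, 4 and 2 reads in the Control libraries, and Ifna1, Ifna4, Ifna5, Ifne and Ifnz held none. Ifng held 18, 8 and 4 reads in Spry1_KO, against 4, 7 and 1 reads in Control, and its groups overlapped, with the highest count again in Spry1_KO replicate 1. A count of 0 in a library leaves room for up to 3 reads.

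Of 9 receptor and kinase genes 1 rose (11.1%) and 2 fell (22.2%), where 29.6% of all tested genes rose and 24.4% fell. Ifngr1, the ligand-binding chain of the gamma receptor, measured 18.0, 14.8 and 16.4 FPKM in Spry1_KO, against 98.4, 99.996 and 65.9 FPKM in Control, 5.37-fold lower (limma log2 fold change -2.34 ± 0.17, adjusted p = 0.000100). Ifnlr1, the type III receptor, fell by 0.97 ± 0.14, and Ifnar2 rose by 0.72 ± 0.14 on the log2 scale. Ifnar1, Ifngr2, Il10rb, Jak1, Jak2 and Tyk2 did not pass.

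Among the other STAT and IRF factors Stat3 rose by 1.02 ± 0.09 and Irf4 fell by 1.38 ± 0.26 on the log2 scale. Of 13 tested sensor and adaptor genes 5 rose (38.5%) and 2 fell (15.4%), where 29.6% of all tested genes rose and 24.4% fell. Tmem173, which encodes STING, measured 12.6, 4.48 and 8.37 FPKM in Spry1_KO, against 1.81, 1.81 and 1.05 FPKM in Control, 5.47-fold higher (limma adjusted p = 0.00339). Nod2, Aim2 and Traf3 rose by 1.38 ± 0.16, 0.78 ± 0.16 and 0.75 ± 0.10, and Tlr3 and Ikbke fell by 0.58 ± 0.11 and 0.63 ± 0.21. The Ikbke call was lost on leaving out any 1 of the Spry1_KO libraries, with no filter, with a replicate block and with both Spry1_KO replicate 2 and Control replicate 3 left out, and its log2 fold change ranged from -0.96 to -0.33 over the alternatives. Of 10 negative regulators 3 rose (30.0%) and 2 fell (20.0%), shares close to the 29.6% and 24.4% of all tested genes. Trim27, Ptpn1 and Ptpn2 rose, by 0.76 ± 0.12, 0.52 ± 0.09 and 0.33 ± 0.08, and Ptpn6, the phosphatase SHP-1, and Pias1 fell, by 1.62 ± 0.12 and 0.42 ± 0.10. The Ptpn1 and Ptpn2 calls were lost when values were rescaled to the same sum, and that of Ptpn2 also by limma-voom. Il15, an interferon-inducible cytokine that sustains T cells and natural killer cells, held 18, 19 and 20 reads in Spry1_KO, against 374, 315 and 326 reads in Control, and was 17.0-fold lower by mean FPKM (adjusted p = 1.35e-05).

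Markers of immune cells, which also carry interferon-stimulated RNA, moved between the genotypes as well. Beside the counts below, 29.6% of all tested genes rose and 24.4% fell. Of 7 tested macrophage markers 4 rose (C1qa, C1qb, C1qc and Mrc1), 2 fell (Csf1r and Adgre1) and Cd68 did not pass, and the 8 listed markers summed to 62.8 to 116 FPKM in Spry1_KO and 32.5 to 48.7 FPKM in Control. Of 8 T cell markers Trac, Cd8a and Cd4 rose, Cd3d, Cd3e, Cd3g and Trdc fell and Thy1 did not pass, with sums of 28.6 to 62.1 FPKM in Spry1_KO and 60.3 to 86.0 FPKM in Control. Trdc, the constant region of the delta chain of gamma-delta T cells, measured 1.57, 0.984 and 1.84 FPKM in Spry1_KO, against 17.4, 16.0 and 12.6 FPKM in Control. Of natural killer cell markers, Gzmb rose and Prf1 fell, Klrb1c, Ncr1 and Eomes were below the filter, and Ncr1 and Eomes were at 0 in every Control library. Their 5-gene sum was 5.01 to 12.1 FPKM in Spry1_KO and 9.49 to 18.9 FPKM in Control.

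Among Langerhans and dendritic cell markers 4 of 5 tested genes fell (Cd207, Cd74, H2-Ab1 and H2-Eb1), where 24.4% of all tested genes did. Itgax did not pass and Flt3 was below the filter. The 6 genes summed to 365 to 572 FPKM in Spry1_KO and 1150 to 1881 FPKM in Control. Of plasmacytoid dendritic cell markers Siglech measured 1.12, 0.596 and 1.02 FPKM in Spry1_KO, against 0.0487, 0.0323 and 0 FPKM in Control. By mean FPKM Cox6a2 was 3.98-fold lower and Ccr9 1.37-fold lower in Spry1_KO. These 3 genes were below the filter, and Tcf4 did not pass. The 4-gene sums, 2.52 to 2.97 FPKM in Spry1_KO and 2.16 to 4.47 FPKM in Control, overlapped. Neutrophil markers, with Elane at 0 in every library and Ly6g at 0 in Control, summed to 2.15 to 5.76 FPKM in Spry1_KO and 0.0152 to 0.276 FPKM in Control. B cell markers summed to 0.356 to 0.473 FPKM in Spry1_KO and 0.117 to 0.250 FPKM in Control. Endothelial sums overlapped, at 0.492 to 0.997 FPKM in Spry1_KO and 0.461 to 2.68 FPKM in Control. Fibroblast markers summed to 1.05 to 3.37 FPKM in Spry1_KO and 4.65 to 10.3 FPKM in Control, skeletal muscle markers to 0.613 to 1.52 FPKM in Spry1_KO and 9.83 to 39.6 FPKM in Control, and red blood cell markers to 18.0 to 83.8 FPKM in Spry1_KO and 70.4 to 158 FPKM in Control. In Spry1_KO replicates 1, 2 and 3 the macrophage sum was 111, 62.8 and 116 FPKM and the T cell sum 62.1, 28.6 and 52.4 FPKM. These values were not rescaled to the same sum in every library. The order of replicates 1 and 3 in the macrophage sum depends on that scaling. The part of these cells in the levels of the interferon-stimulated genes was not tested.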

How the data were processed

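RNA from back epidermis of 3 Spry1_KO and 3 Control samples was sequenced, and titles gave each sample its group and replicate number. The deposited file is a table of FPKM values that the authors computed, with 1 column per sample. HISAT2 2.0.5, featureCounts 1.5.0-p3 and the mouse build GRCm38 are named in the submitters' processing notes. No source used here gives the annotation release, the strandedness, the filters or the FPKM formula, and each can shift low or overlapping genes. GENCODE M21 on GRCm38 supplied exon lengths and positions for 54495 of the 54532 gene IDs. The product of FPKM and exon length was a whole number of reads for 97.0% to 97.3% of values above 0 (tolerance 0.1 reads).

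The main test was a two-sided limma test with a variance trend (limma 3.58.1 under R 4.3.3) on log2(FPKM + 1) of genes averaging at least 1 FPKM, adjusted by Benjamini-Hochberg over all of them at 0.05, with genotype as the only term. It was tested on simulated data. Alternatives were a pseudocount of 0.1, no filter, rescaling of each sample to the same sum, median-ratio scaling, a replicate block, leaving out each library or Control replicate 3 and Spry1_KO replicate 2 together, limma-voom on recovered reads, Irf1 in the type I class, and a C required after the response element core. Replicates of a genotype differed beyond sampling noise in each pair, with a chi-square per gene of 14.1 to 83.9. Counting error and floors cover reads only.

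The members and gene lists were chosen with earlier results of these data known. All 41 members are named. Of each other list, up to 4 genes in each direction with the lowest p are named, or at most 2 of a list in which none passed, together with interferon genes, Spry1 and all cell type markers. Some genes that the rule selects are left out of the text. H2-K1, Nlrc5, Ifit3b, B2m as a promoter shown, Eif2s3y and the pathway genes named as not passing were chosen after their values were seen. The same holds for H2-D1, H2-T23, Psme1, Tap2, Tapbp and Erap1. Promoters were taken, in each class, from the 3 members that rose with the lowest p and from 1 that fell or did not pass. Tap1, whose window lies in exons of Psmb9, and Ifih1, whose response element match lies after the start, were left out. Ifi35, which rose, was left out as well. Its window held no response element core, and its TTCNNNGAA match lies after the start. Analyses used Python 3.11.15, pandas 2.3.3 and matplotlib 3.10.9.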

Additional observations from a re-analysis of the deposited data

How the results depend on the processing

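No pairing by replicate number was seen, as the deviations of same-numbered libraries correlated at -0.098, -0.111 and -0.125. Those of unlike-numbered libraries correlated at -0.043 to 0.147. Deviations from the mean of a genotype constrain each other, so such small correlations cannot decide whether the libraries were paired. With a replicate block 3216 genes rose and 2618 fell, and the counts of called members were 11 higher and 1 lower in the type I class and 4 higher and 3 lower in the gamma class. With values rescaled to the same sum, 2 type I members were lower, 10 further interferon-induced genes were higher and 14 pathway genes were lower. The median log2 fold change of all tested genes was -0.22 with that scaling, and its part in these counts was not tested. Without Spry1_KO replicate 1, and by limma-voom on the recovered reads, 2 type I members were lower, for which the cause was not tested. Leaving out each library in turn gave 5647 to 7313 genes called, 10 to 11 type I members higher and 1 to 2 lower, 4 gamma members higher and 2 to 3 lower, 13 to 18 further genes higher and 11 to 15 lower, and 10 to 12 pathway genes higher and 7 to 10 lower. No member changed sign past the threshold. With a C required after the response element core 15 of 32 members held a match, against 0.944% of all genes. Limma-voom could not be run for Psmb8 and Psmb9, whose values did not give whole reads. Depth limits members with few Control reads, among them Oasl1, Rsad2 and Ifi44.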
